A study of Mus musculus with 8 samples.

Results

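Cdkn1a, Cdkn1b, Cdkn1c, Cdkn2c, Cdkn2d, Btg1, Btg2, Btg3, Tob1 and Tob2 were examined here as a set of 5 inhibitors of cyclin-dependent kinases (CDKs) and 5 antiproliferative genes of the Btg/Tob family. The 10 genes were taken by symbol from a table of 24346 genes, and all 10 passed the filter on low values, a mean over the 8 libraries of 1 FPKM or more, as did 12328 genes in all. FPKM counts fragments per kilobase of transcript, scaled to the mapped fragments of a library, so that levels of different genes can be set side by side per length. The set was chosen by the difference between genotypes in these same libraries, so the members' own differences are described here without a test.

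RNA-seq was performed on immature oligodendrocytes (iOLs) grown from P7 mouse brains, with 4 Med23+/+ and 4 Med23-/- libraries. Oligodendrocyte precursor cells (OPCs) had been immunopanned and expanded in 10 ng/mL PDGF-AA with 1 ng/mL NT-3, and all libraries came from cells that had then spent 1 day in 15 nM T3 (thyroid hormone) with 10 ng/mL ciliary neurotrophic factor. The Med23-/- cells carried Med23 fl/fl alleles recombined by Olig1-cre, which acts in cells that express or once expressed Olig1, and the study defines the controls of this line as Med23 fl/fl littermates. The presence of Cre therefore goes with the genotype, and the 2 cannot be told apart. Med23 is a subunit of Mediator, the complex that links transcription factors to RNA polymerase II, and the comparison asks which transcripts change in its absence as precursors differentiate. The labels do not say whether the 4 replicates of a genotype came from separate animals or cultures, so the p-values below measure the spread between these samples only.

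CDK inhibitors hold back the kinases that carry a cell from G1 into S phase. The Cip/Kip proteins (p21 from Cdkn1a, p27 from Cdkn1b and p57 from Cdkn1c) bind cyclin-CDK complexes of several kinds, whereas the Ink4 proteins (p18 from Cdkn2c and p19 from Cdkn2d) bind CDK4 and CDK6 and keep them from D-type cyclins. Oligodendrocyte precursors are known to need these brakes to leave the cell cycle when they differentiate, with p27, p57 and p21 each linked to that step. Btg and Tob proteins share an amino-terminal domain that binds the CCR4-NOT deadenylase, the complex that shortens poly(A) tails of mRNA, and their overexpression slows proliferation in many cell types.

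The deposited Med23 level lay between 12.2 and 12.7 FPKM in the Med23+/+ libraries and between 7.93 and 8.49 FPKM in the Med23-/- libraries, lower in all 4 (limma log2 difference -0.55, adjusted p 0.000353). The FPKM covers the whole gene and does not show the deleted exons on their own. Olig2, a transcription factor that marks the oligodendrocyte lineage, was present in every library, at 221 to 303 FPKM in Med23+/+ and 269 to 508 FPKM in Med23-/-. Olig1, its close relative, was at 473 to 877 FPKM in Med23+/+ and 529.7 to 776 FPKM in Med23-/-. Microglial markers summed to at most 1.76 FPKM and endothelial markers to at most 0.368 FPKM in any library. Reads per library are not in the table, so the depth behind each FPKM is unknown. Genes above 0 numbered 15941 to 16363 in the Med23+/+ libraries and 16408 to 16469 in the Med23-/- libraries, without overlap. The median FPKM over all genes was 0.851 to 1.01 in Med23+/+ and 1.08 to 1.16 in Med23-/-, also without overlap. The cause was not tested. Since these are bulk samples, more cells that express a gene and more of its RNA per cell cannot be told apart.

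Cdkn1a, which encodes p21, a p53 target that restrains CDK2, had the widest gap among the CDK inhibitors. Cdkn1a (chr17:29090976-29100727, mm10, plus strand) stood at 13.8, 14.6, 6.15 and 9.12 FPKM in Med23+/+ replicates 1 to 4 and at 47.5, 40.2, 35.4 and 51.7 FPKM in Med23-/- replicates 1 to 4. Every Med23-/- library was above every Med23+/+ library, by a wide margin. The means were 10.9 ± 3.99 and 43.7 ± 7.30 FPKM (SD, n = 4), a ratio of 4.003, and the difference on the log2(FPKM + 1) scale was 1.96 with a limma standard error of 0.23. That scale adds 1 FPKM before the logarithm and so understates the change of low genes. An annotated gene on the opposite strand, AC167363.2, covers 7.7% of the exon bases of Cdkn1a, and whether the counting used strand was not given.

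Cdkn1b, which encodes p27, the inhibitor most often tied to precursor cell cycle exit, was the most abundant of the 10 genes in both genotypes. Cdkn1b (chr6:134920401-134925513, plus strand) was at 43.4, 38.8, 40.8 and 44.1 FPKM in Med23+/+ and at 47.5, 44.8, 46.5 and 54.5 FPKM in Med23-/-. The genotypes did not overlap, but the step between them was small, from 41.8 ± 2.45 to 48.3 ± 4.28 FPKM, with a log2 difference of 0.20 (SE 0.08).

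Cdkn1c, the imprinted gene of p57, went the other way in the mean and split the Med23-/- libraries. Cdkn1c (chr7:143458339-143461050, minus strand) was at 16.4, 12.3, 15.7 and 12.9 FPKM in Med23+/+ and at 15.0, 16.1, 7.87 and 6.49 FPKM in Med23-/-. Med23-/- replicates 1 and 2 were within the Med23+/+ range, while replicates 3 and 4 were below all 4 Med23+/+ libraries. The means of 14.3 ± 2.01 and 11.4 ± 4.91 FPKM gave a log2 difference of -0.39 with a standard error of 0.26. An annotated antisense gene on the opposite strand, Gm44732, covers 30.7% of the exon bases of Cdkn1c, and whether the counting used strand was not given.

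Of the Ink4 genes, Cdkn2c was higher in all Med23-/- libraries and Cdkn2d was not. Cdkn2c (chr4:109660876-109667189, minus strand), which encodes p18, was at 23.7, 22.5, 17.4 and 25.8 FPKM in Med23+/+ and at 39.7, 32.01, 39.6 and 57.8 FPKM in Med23-/-. Its means were 22.3 ± 3.58 and 42.3 ± 11.0 FPKM, a ratio of 1.89 and a log2 difference of 0.87 (SE 0.17). Med23-/- replicate 4 held the highest value, and the other 3 also exceeded every Med23+/+ library.

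Cdkn2d, which encodes p19, showed no such separation. Cdkn2d (chr9:21288410-21291407, minus strand) was at 35.4, 32.4, 31.96 and 36.3 FPKM in Med23+/+ and at 36.3, 32.3, 31.7 and 46.2 FPKM in Med23-/-, so that only Med23-/- replicate 4 lay clearly outside the Med23+/+ range. The log2 difference of 0.09 (SE 0.12) turned to -0.02 when that library was left out.

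**Figure D1:**
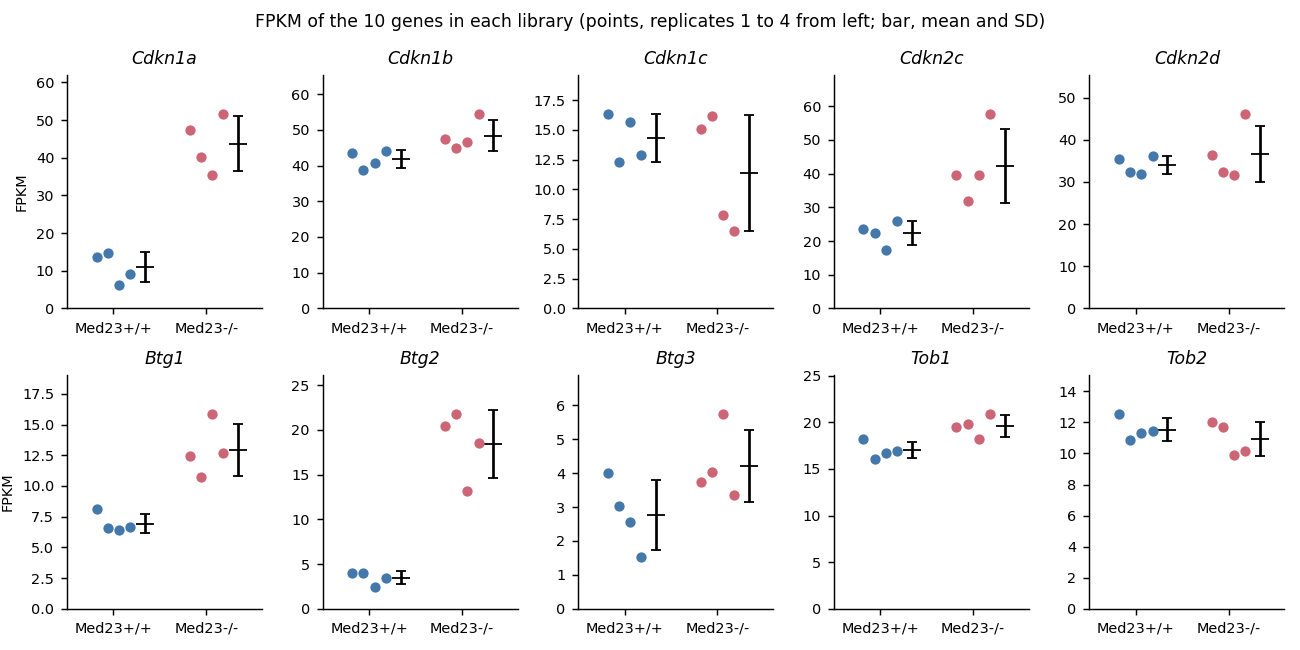
FPKM of the 10 genes (vertical axes, each from 0) in the 4 Med23+/+ libraries (blue) and the 4 Med23-/- libraries (red), 1 point per library with the mean and SD beside them. Cdkn1a, Cdkn2c, Btg1 and Btg2 are well separated by genotype, Cdkn1b narrowly, and the other 5 genes overlap.

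Among the Btg genes, Btg2 had the largest ratio of all 10 members. Btg2, an immediate early gene and p53 target, lies at chr1:134075170-134079120 on the minus strand. It was at 4.02, 4.002, 2.42 and 3.43 FPKM in Med23+/+ and at 20.4, 21.8, 13.1 and 18.6 FPKM in Med23-/-. The genotypes were far apart, with means of 3.47 ± 0.750 and 18.5 ± 3.80 FPKM, a ratio of 5.33 and a log2 difference of 2.12 (SE 0.17).

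Btg1, first found at a chromosomal breakpoint in B cell leukaemia and a FoxO target, was also higher in each Med23-/- library. Btg1 (chr10:96617006-96622809, plus strand) was at 8.11, 6.55, 6.43 and 6.64 FPKM in Med23+/+ and at 12.4, 10.7, 15.9 and 12.7 FPKM in Med23-/-. The means were 6.93 ± 0.791 and 12.9 ± 2.15 FPKM, a ratio of 1.86 and a log2 difference of 0.80 (SE 0.12).

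Btg3, an antiproliferative gene of the same family, was the least abundant member in both genotypes. Btg3 (chr16:78332637-78377192, minus strand) was at 3.999, 3.02, 2.55 and 1.51 FPKM in Med23+/+ and at 3.74, 4.03, 5.75 and 3.36 FPKM in Med23-/-. The ranges overlapped, and the log2 difference was 0.49 (SE 0.21). Cxadr, which encodes an adhesion molecule and is transcribed from the opposite strand, shares 695 of the 4014 exon bases of Btg3, and its mean was 12.6 FPKM in Med23+/+ and 25.9 FPKM in Med23-/-. Whether reads were assigned by strand was not given, so the Btg3 values are uncertain by reads of Cxadr.

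The Tob genes were nearly level between the genotypes. Tob1 (chr11:94211454-94215495, plus strand), whose protein also binds Smads and the cytoplasmic poly(A)-binding protein, was at 18.2, 16.1, 16.7 and 16.9 FPKM in Med23+/+ and at 19.5, 19.9, 18.2 and 20.9 FPKM in Med23-/-. Its lowest Med23-/- library met its highest Med23+/+ library, and the log2 difference was 0.20 (SE 0.07). Tob2 (chr15:81848272-81858796, minus strand), the closest relative of Tob1, was at 12.6, 10.8, 11.3 and 11.4 FPKM in Med23+/+ and at 12.03, 11.7, 9.92 and 10.1 FPKM in Med23-/-. The libraries of the genotypes were interleaved, with a log2 difference of -0.07 (SE 0.09). An annotated antisense gene, Gm49476, covers 4.3% of the exon bases of Tob2.

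Thus the mean was higher in Med23-/- for 8 of the 10 genes and lower for 2, Cdkn1c and Tob2. The median log2 difference of the members was 0.35, beside -0.01 over all genes tested, of which the middle 50% lay between -0.20 and 0.21. In the limma fit across all genes, which calls a gene at a Benjamini-Hochberg adjusted p under 0.05, 4 members were called higher (Cdkn1a, Cdkn2c, Btg1 and Btg2), 0 lower and 6 neither. The same fit called 30.0% of all 12328 genes, 15.9% higher and 14.1% lower in Med23-/-, and nothing is read from the members' count, because that contrast selected them. In 5 members the genotypes did not overlap, as in 31.6% of all genes tested, and for the same reason this is a description. Over 16 alternatives of pseudocount, filtering, scaling, weighting, covariates or leaving out a library, the log2 difference ranged from 1.74 to 2.11 for Cdkn1a, from 1.99 to 2.38 for Btg2, from 0.71 to 0.99 for Cdkn2c and from 0.71 to 0.88 for Btg1. Cdkn1c remained negative, from -0.58 to -0.18, and Cdkn2d was the only member whose sign changed in any of them. Filters and covariates cannot change a log2 difference in this balanced design, so these ranges come from the other alternatives.

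**Figure D2:**
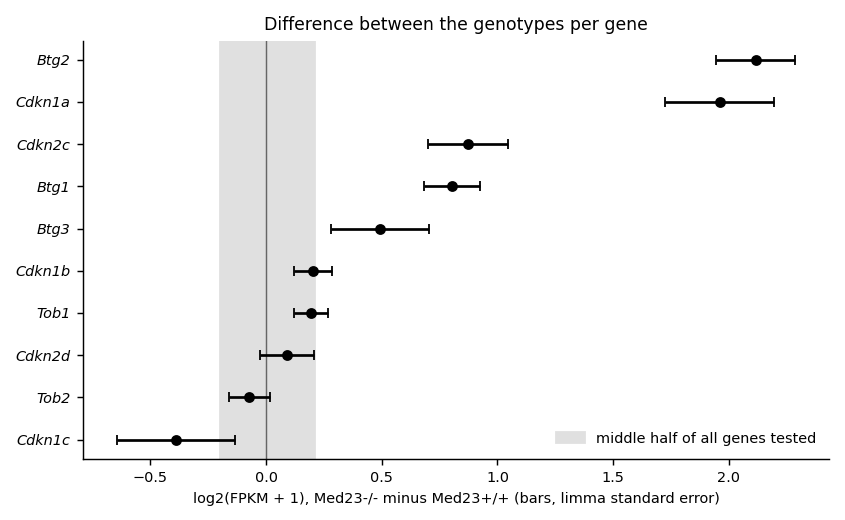
Difference between Med23-/- and Med23+/+ on the log2(FPKM + 1) scale for each of the 10 genes (points) with the limma standard error (bars), over a grey band from the 25th to the 75th percentile of all genes tested. Btg2 at 2.12 and Cdkn1a at 1.96 lie farthest from 0, and Cdkn1b, Tob1, Cdkn2d and Tob2 have points inside the band.

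Per length, the order of levels differed between the genotypes. In Med23+/+ the highest mean was that of Cdkn1b, then Cdkn2d, and each was above the next gene in all 4 libraries without overlap. Cdkn2c, Tob1, Cdkn1c, Tob2, Cdkn1a and Btg1 followed, with overlap between neighbours among these 6. Btg1 was above Btg2 without overlap, and Btg2 and Btg3 came last with overlapping ranges. In Med23-/- Cdkn1b, Cdkn1a, Cdkn2c and Cdkn2d formed the upper group, each overlapping the next, and all members after them were lower without overlap at that step. Tob1, Btg2, Btg1, Cdkn1c and Tob2 came next with overlapping neighbours, and Btg3 was last and apart. Cdkn1a thus moved from the seventh place to the second and Btg2 from the ninth to the sixth.

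Summed over the 5 genes, CDK inhibitor transcripts came to 132.7, 120.6, 112.0 and 128.2 FPKM in Med23+/+ and to 186.0, 165.4, 161.1 and 216.9 FPKM in Med23-/-. Every Med23-/- sum exceeded every Med23+/+ sum, with means of 123 ± 9.08 and 182 ± 25.4 FPKM. Cdkn1a made up 8.78 ± 3.02% of the sum in Med23+/+ and 23.9 ± 1.46% in Med23-/-, without overlap. The share of Cdkn1b was 33.9 ± 1.91% and 26.7 ± 1.69%, that of Cdkn2d 27.6 ± 0.942% and 20.02 ± 0.872%, and that of Cdkn1c 11.7 ± 1.88% and 6.43 ± 3.06%, again without overlap. A smaller share need not mean a lower level: Cdkn1b and Cdkn2d had lower shares of a larger sum at slightly higher mean FPKM. Only the share of Cdkn2c, 18.03 ± 1.92% and 23.0 ± 3.27%, overlapped between genotypes.

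The Btg/Tob sum was 41.7 ± 3.47 FPKM in Med23+/+ and 66.2 ± 2.51 FPKM in Med23-/-, without overlap. Btg2 accounted for 8.29 ± 1.56% of it in Med23+/+ and for 27.8 ± 4.83% in Med23-/-. Tob1 and Tob2, together the greater part of the sum in Med23+/+, had shares of 40.8 ± 1.84% and 27.7 ± 1.10% there and of 29.6 ± 1.49% and 16.5 ± 1.08% in Med23-/-. The shares of Btg1 (16.6 ± 0.514% and 19.6 ± 4.03%) and Btg3 (6.56 ± 2.03% and 6.42 ± 1.85%) overlapped.

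**Figure D3:**
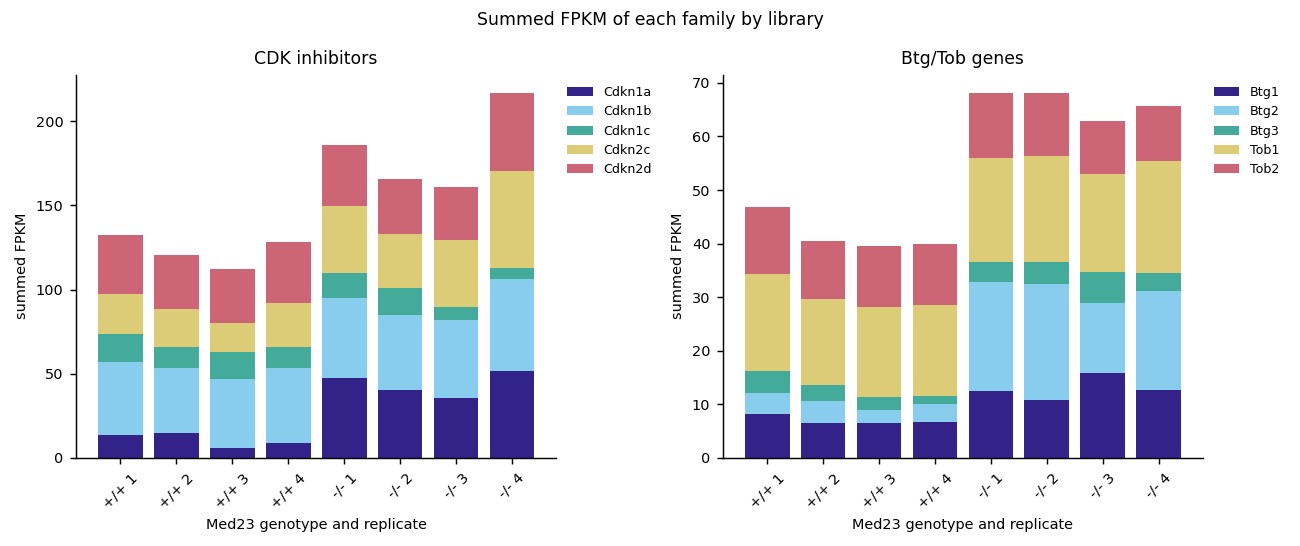
Summed FPKM of the 5 CDK inhibitors (left) and the 5 Btg/Tob genes (right) in each library, stacked by gene, with the vertical axis from 0. Both sums are higher in the 4 Med23-/- libraries (from 161.1 to 216.9 FPKM for the CDK inhibitors), and the Cdkn1a and Btg2 blocks widen most.

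Within Med23-/-, replicate 4 had the highest Cdkn1a, Cdkn1b, Cdkn2c and Cdkn2d and the lowest Cdkn1c, whereas replicate 3 had the lowest Cdkn1a and Btg2 and the highest Btg1 and Btg3. Med23+/+ replicate 3 had the lowest Cdkn1a, Cdkn2c, Cdkn2d, Btg1 and Btg2 of its genotype. Replicate 3 of Med23-/- also had the highest sum of 7 neuronal markers, 188.6 FPKM, against 89.3 to 154.1 FPKM in the other 3 Med23-/- libraries and 42.5 to 70.2 FPKM in Med23+/+. All 7 neuronal markers reached 1 FPKM in at least 1 library and 6 of them were called higher in Med23-/- by limma, and their part in the differences of the members was not tested. The sums of 6 astrocyte markers, of which Slc1a3 was the highest on average, overlapped at 53.2 to 107.7 FPKM in Med23+/+ and 49.0 to 85.0 FPKM in Med23-/-, but single markers did not move alike. Named after their values were seen, Gfap (13.6 ± 11.1 and 3.12 ± 2.26 FPKM, limma adjusted p 0.0222) and Aqp4 (6.81 ± 2.44 and 2.34 ± 1.69 FPKM, limma adjusted p 0.0120) were called lower. Slc1a2 was called higher (11.0 ± 3.0 and 17.8 ± 3.21 FPKM, limma adjusted p 0.0222), the other 3 were not called, and the part of these markers in the members' differences was not tested. Mural and fibroblast markers summed to 1.15 to 9.50 FPKM and 2.98 to 16.6 FPKM, also overlapping. Among oligodendrocyte lineage markers, limma called Pdgfra and Cspg4, marks of precursors, higher and Sox10, Cnp and Mbp lower in Med23-/-.

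Over the 8 libraries, the genes whose log2(FPKM + 1) followed Cdkn1a most closely were Pask (Pearson r = 0.997), Wnt7b (r = 0.995) and Nkd1 (r = 0.994). For Btg2 they were Rlbp1 (r = 0.998), Apaf1 (r = 0.995) and H2afy2 (r = 0.994). For Cdkn1b the closest were Zfp36l2 (r = 0.982), Zbtb20 (r = 0.982) and Lmtk2 (r = 0.976), and for Cdkn1c Chst5 (r = 0.981), Agrn (r = 0.979) and Matk (r = 0.968). For Cdkn1c, Chst5 and Matk, Med23-/- replicates 1 and 2 were within the Med23+/+ range and replicates 3 and 4 below it. All these values are given as a description over 8 libraries of 2 genotypes. The r values include the step between the genotypes, so a gene with a similar step can have a high r on that account.

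The promoters of the members were read to describe short motifs that they share. RefSeq start sites (GRCm38.p6) gave 12 windows of 250 bases before and 50 after the start for 9 of the 10 genes, with no entry for Cdkn1c. The letters GGGCGG, the core of the GC box bound by Sp1-type factors, were searched on both strands and occurred in at least 1 window of all 9 genes, beside 35.7% of the 32851 windows of all genes. The longer box GGGGCGGGG, which contains that core, occurred in 4 of the 9 (Btg3, Cdkn1a, Tob1 and Tob2) and in 11.4% of all windows. CCAAT occurred in 7 of the 9 and in 37.4% of all windows, TATAAA in Btg1 and Tob1 and in 13.6%, and the E-box CACGTG in Cdkn2c and in 7.15%. A gene with several windows has more chances of a match than a single window, so the counts per gene and the share of windows are not on 1 footing. Btg3, Cdkn1a and Cdkn2c each also had a window with 0 matches to GGGCGG. The windows of all genes were also not limited to genes that passed the filter on low values, as the members did. Such matches describe letters and not binding.

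The sequences below are the parts of 4 windows before annotated protein-coding exons, on the strand of the gene, with GC box cores on either strand (GGGCGG or CCGCCC) in capitals. Cdkn1a and Btg2 are shown because they differed most between the genotypes, and Tob1 because its difference of 0.20 was inside the range of the middle 50% of all genes. The stretch before the upstream start of Cdkn1a is chr17:29090729-29090975 (plus strand), and that before its downstream start is chr17:29093519-29093768 (plus strand). The Btg2 stretch is chr1:134079156-134079405 (minus strand) and the Tob1 stretch chr11:94211204-94211453 (plus strand).
Cdkn1a, upstream start: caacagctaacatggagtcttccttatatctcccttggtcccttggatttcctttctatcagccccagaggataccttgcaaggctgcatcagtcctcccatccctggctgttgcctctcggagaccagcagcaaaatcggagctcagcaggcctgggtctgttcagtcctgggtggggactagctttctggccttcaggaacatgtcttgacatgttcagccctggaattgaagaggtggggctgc
Cdkn1a, downstream start: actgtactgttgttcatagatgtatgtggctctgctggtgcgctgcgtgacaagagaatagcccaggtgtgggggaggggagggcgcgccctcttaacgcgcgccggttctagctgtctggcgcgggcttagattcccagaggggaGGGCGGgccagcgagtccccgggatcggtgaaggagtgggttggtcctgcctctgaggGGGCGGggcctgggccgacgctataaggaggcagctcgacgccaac
Btg2: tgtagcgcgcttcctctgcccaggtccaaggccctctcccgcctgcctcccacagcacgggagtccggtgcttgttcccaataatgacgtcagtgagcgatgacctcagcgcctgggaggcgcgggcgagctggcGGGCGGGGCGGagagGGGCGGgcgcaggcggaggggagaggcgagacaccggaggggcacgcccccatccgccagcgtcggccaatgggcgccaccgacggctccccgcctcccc
Tob1: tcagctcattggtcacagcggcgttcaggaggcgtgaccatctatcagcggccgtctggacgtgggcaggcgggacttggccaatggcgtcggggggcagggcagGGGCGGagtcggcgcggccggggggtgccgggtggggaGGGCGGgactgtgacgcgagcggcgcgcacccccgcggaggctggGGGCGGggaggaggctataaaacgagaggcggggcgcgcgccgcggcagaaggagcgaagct

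The upstream Cdkn1a window held 0 cores and the downstream window 2, the second of them within a full GGGGCGGGG box. Btg2 held 3 cores, of which the first and second overlap in 1 run, and no full box. Tob1 held 3 cores and 1 full box. Whether motif counts go with expression differences was not tested. Among the 9 genes the number of cores in the richest window ran from 1 in Cdkn1b to 5 in Cdkn2d.

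Genes that act with the CDK inhibitors were read from the same fit, in lists chosen with earlier results known. The counts of these lists stand beside 15.9% of all 12328 genes tested called higher and 14.1% called lower. Of 11 G1 cyclins, CDKs and pocket proteins, limma called 6 higher, 1 lower and 4 neither in Med23-/-, with a median log2 difference of 0.38. Rbl1, a pocket protein called higher and named after its values were seen, passed in 10 of 18 alternative fits. Ccnd1, the D-type cyclin that the Ink4 proteins compete with for CDK4 and CDK6, rose from 48.7 ± 7.86 to 139 ± 44.2 FPKM (log2 difference 1.46, SE 0.20, limma adjusted p 0.000679) and was higher in 4 of 4 libraries. Cdk6, one of the kinases bound by p18 and p19, rose from 2.12 ± 0.478 to 5.64 ± 1.36 FPKM (log2 difference 1.08, limma adjusted p 0.00119). The other, Cdk4, was the gene called lower, from 298 ± 14.5 to 233 ± 16.3 FPKM (log2 difference -0.35, limma adjusted p 0.0105).

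E2F factors, some of which are held by the pocket proteins until CDKs phosphorylate those proteins, showed 2 of 8 genes called higher and 1 lower. E2f7, a repressive E2F, went from 2.20 ± 0.548 to 5.30 ± 1.88 FPKM (log2 difference 0.95, limma adjusted p 0.00730), and E2f1 from 2.67 ± 0.690 to 4.58 ± 0.921 FPKM (log2 difference 0.61, limma adjusted p 0.0208). E2f5 went from 11.5 ± 0.741 to 9.10 ± 0.682 FPKM (log2 difference -0.30, limma adjusted p 0.0200). The calls of E2f1 and E2f5 depended on single libraries, and that of E2f7 was kept whichever library was left out. Without Med23+/+ replicate 3, Med23+/+ replicate 4 or Med23-/- replicate 1, 1 E2F gene was called higher, and without Med23+/+ replicate 4 or Med23-/- replicate 1, 0 were called lower.

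Of 24 genes of S and M phase, 22 were called higher in Med23-/- and 0 lower, and the median log2 difference was 0.90. All 24 were positive, from 0.26 to 1.12, and the 2 not called were Mcm4 (limma adjusted p 0.0504) and Tyms (limma adjusted p 0.0803), chosen for naming after their values were seen. Mcm5, a subunit of the replicative helicase, rose from 13.4 ± 3.04 to 30.7 ± 9.72 FPKM (log2 difference 1.12, limma adjusted p 0.00436). Top2a, the topoisomerase of dividing cells, rose from 49.4 ± 15.1 to 106 ± 28.3 FPKM (log2 difference 1.11, limma adjusted p 0.00744). The count fell to 13 of 24 without Med23+/+ replicate 3 and to 14 without Med23-/- replicate 1. Whether these transcripts and those of Cdkn1a or Cdkn2c were in the same cells was not measured.

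Ubiquitin ligases that act on CDK inhibitor proteins moved little. Of 11 genes, limma called 1 higher and 0 lower, with a median log2 difference of -0.03. The gene called was Dtl, the receptor of a CUL4 ligase that destroys p21 in S phase, which rose from 5.13 ± 1.69 to 10.5 ± 2.99 FPKM (log2 difference 0.92, limma adjusted p 0.0129). Skp2, the receptor for p27 that was named after its values were seen, had a log2 difference of 0.32 (limma adjusted p 0.0753). Skp2 passed in 1 of 18 alternative fits, that with a replicate block (limma adjusted p 0.0209), and its highest limma adjusted p was 0.185.

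The partners of the Btg/Tob proteins, 16 genes of the CCR4-NOT and PAN deadenylases, poly(A)-binding proteins and Prmt1, had a median log2 difference of -0.05, with 0 called higher and 2 lower. Prmt1, an arginine methyltransferase that binds Btg1 and Btg2, fell from 150 ± 14.7 to 103 ± 5.97 FPKM (log2 difference -0.53, limma adjusted p 0.00203). Pabpc4, a poly(A)-binding protein, fell from 30.2 ± 3.03 to 21.6 ± 3.79 FPKM (log2 difference -0.48, limma adjusted p 0.0204). The count of lower genes was 1 without Med23+/+ replicate 1 or Med23+/+ replicate 2. The deadenylase subunits Cnot7 and Cnot8, to which Btg and Tob proteins bind directly, had log2 differences of -0.08 and -0.11 and were not called (limma adjusted p 0.619 and 0.286).

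**Figure D4:**
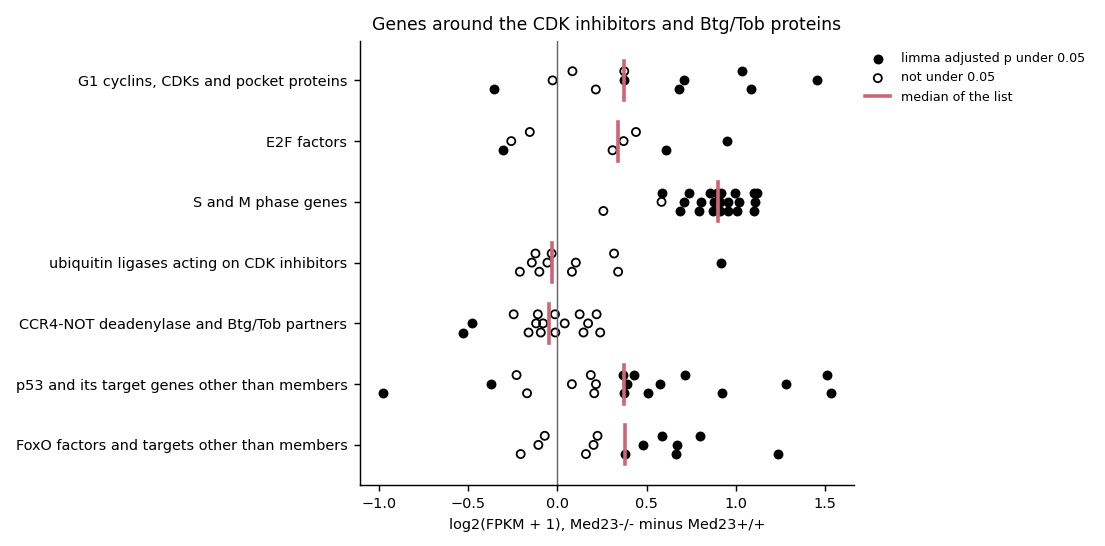
Difference between Med23-/- and Med23+/+ on the log2(FPKM + 1) scale (horizontal axis) for each gene tested in 7 lists, with filled points for a limma adjusted p under 0.05, open points for the rest and a red line at the median of each list. S and M phase genes lie to the right with a median of 0.90, and the ubiquitin ligase and CCR4-NOT lists centre near 0 with medians of -0.03 and -0.05.

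Cdkn1a and Btg2 are known p53 targets, and 21 further genes of that pathway were listed, of which 19 were tested. Limma called 11 higher, 2 lower and 6 neither, with a median log2 difference of 0.37. Eda2r, a receptor of the TNF family, rose from 7.80 ± 2.12 to 24.2 ± 3.45 FPKM (log2 difference 1.54, limma adjusted p 0.000178), and Pmaip1, the BH3-only protein Noxa, from 0.626 ± 0.312 to 3.62 ± 0.748 FPKM (log2 difference 1.51, limma adjusted p 0.000239). Other p53 targets went down. Gadd45a fell from 13.0 ± 2.51 to 6.06 ± 0.752 FPKM (log2 difference -0.98, limma adjusted p 0.000621), and Mdm2, the ligase that limits p53, from 35.5 ± 1.33 to 27.3 ± 1.80 FPKM (log2 difference -0.37, limma adjusted p 0.00465). Trp53 itself had a log2 difference of -0.17 and was not called (limma adjusted p 0.392). Whether p53 acts on the members in these cells was not tested.

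FoxO factors, which are known to drive Cdkn1b and Btg1, and their targets made up a list of 14 genes, of which 13 were tested. Limma called 7 higher and 0 lower, with a median log2 difference of 0.38. The 7 included FoxO factors themselves as well as targets. Whether FoxO factors act on the members in these cells was not tested. Bcl6, a transcriptional repressor, rose from 2.63 ± 0.327 to 7.65 ± 1.53 FPKM (log2 difference 1.24, limma adjusted p 0.000215), and Foxo1 from 1.04 ± 0.111 to 2.56 ± 0.359 FPKM (log2 difference 0.80, limma adjusted p 0.000966).

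The 4 relatives left out of the set of 10 had means below 5 FPKM in both genotypes. Cdkn2b, the Ink4 gene of p15, was at 1.70, 2.57, 2.08 and 2.74 FPKM in Med23+/+ and at 3.97, 2.86, 3.90 and 5.18 FPKM in Med23-/-, without overlap (log2 difference 0.60, SE 0.16, limma adjusted p 0.0199). That call was kept in 14 of 17 alternative fits. It was lost without Med23+/+ replicate 3, with quantile normalization and with a fold change above 2 added. Cdkn2a, which encodes p16 and p19Arf, was at 2.41 ± 1.61 and 2.14 ± 1.43 FPKM, with a log2 difference of -0.11 and a limma adjusted p of 0.865. It was at 1.54, 0.817, 2.79 and 4.49 FPKM in Med23+/+ and at 1.13, 0.826, 2.77 and 3.86 FPKM in Med23-/-. In both genotypes replicates 3 and 4 were thus above replicates 1 and 2, and the cause was not tested. Cdkn3, a CDK phosphatase, was at 2.99 ± 1.05 and 4.96 ± 1.49 FPKM, with a log2 difference of 0.59 that did not pass (limma adjusted p 0.0769). Btg4, the oocyte member of its family, was at or below 0.137 FPKM in every library and was not tested.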

How the data were processed

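RNA-seq libraries of 4 Med23+/+ and 4 Med23-/- iOL samples were analysed from the FPKM values per gene and library that the authors deposited. According to the methods, reads were checked with FastQC, trimmed with Cutadapt, aligned with Tophat2 (default parameters, mm10) and quantified with Cuffdiff using bias and multi-read correction. Versions, gene annotation and strand setting were not given in the sources used here. Columns of the authors' own comparison (fold changes, p-values and status) were not used, and 0 library columns were left out.

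Values were tested as log2(FPKM + 1) in limma 3.58.1 (R 4.3.3; lmFit, eBayes with a mean-variance trend) over the 12328 genes whose mean reached 1 FPKM, with Benjamini-Hochberg adjustment and a threshold of 0.05. The script was tested on simulated data. Python 3.11.15 with pandas 2.3.3 computed sums, shares and correlations. The depth of each library is unknown, so 4 libraries per genotype set the precision. Named were all 10 members, Med23, up to 2 genes called with the largest difference in each direction per list, all relatives outside the set, and the 3 genes closest to Cdkn1a, Cdkn1b, Cdkn1c and Btg2 by Pearson r. Members and lists were chosen with earlier results of these data known. Alternatives covered the pseudocount, the filter on low values, scaling, variance trend, sample weights, a replicate block, a covariate, a fold limit and leaving out each library. Gene coordinates are from GENCODE (mm10) and promoters from RefSeq (GRCm38.p6). One marker gene is not reported here.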

Additional observations from a re-analysis of the deposited data

Results flagged for a closer look

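Within 4 libraries of 1 genotype, 1 value can stand apart from the other 3. Of 88 groups of 4 screened over 44 genes, 5 held such a value, where chance alone gives about 1 in 20. Btg1 was at 8.11 FPKM in Med23+/+ replicate 1 and at 6.43 to 6.64 FPKM in the other 3, still below every Med23-/- library. The same library held Bcl6 at 2.15 FPKM, against 2.74 to 2.83 FPKM, and Chst5 at 11.2 FPKM, against 8.82 to 9.19 FPKM. Zfp36l2, the gene closest to Cdkn1b, was at 28.9 FPKM in Med23-/- replicate 4 and at 15.2 to 16.1 FPKM in the other 3 Med23-/- libraries. Btg4 was at 0.0604 FPKM in Med23-/- replicate 2 and listed at 0 in the other 3.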

How the results depend on the processing

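Of the values recomputed under alternatives, 705 stayed within 1.5 times (counts) or 1 SD (other values) and 39 moved, and no called difference changed sign. Some of the 705 could not move, since filters, the replicate block and the covariate leave the log2 difference of a gene unchanged in this design. With a mean of at least 5 FPKM, 1281 genes were higher in Med23-/- (1957 in the fit reported), with 0 E2F and 4 FoxO genes higher, since fewer genes were tested, and the share of higher among calls was 45.8% against 52.96%. Quantile normalization gave 2 CCR4-NOT genes higher and 0 relatives outside the set higher, and median-ratio scaling gave 1 CCR4-NOT gene higher. A covariate for replicates 1 and 2 against 3 and 4 gave 1 CCR4-NOT gene higher. The cause of these was not tested. Adding a fold change above 2, which by construction removes smaller differences, left 367 genes higher and 216 lower (63.0% higher), 3 higher and 0 lower G1 genes, 0 E2F genes in either direction, 6 S and M phase genes higher, 0 ubiquitin ligases higher, 0 CCR4-NOT genes lower, 3 higher and 0 lower p53 genes, 1 FoxO gene higher and 0 relatives higher. Of the 4 members called higher, Cdkn1a and Btg2 passed that limit, and Cdkn2c and Btg1 (log2 differences 0.87 and 0.80) did not. Again nothing is read from the members' calls. Leaving out 1 library at a time gave 1 to 3 CCR4-NOT genes lower, 1 to 3 E2F genes higher and 0 to 1 lower, 13 to 23 S and M phase genes higher and 0 to 1 relatives higher.

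The labels do not say whether equal replicate numbers pair samples across the genotypes, and correlations over the genes tested cannot settle it. Deviations from the genotype means correlated at -0.096 to 0.159 for the same number and at -0.179 to 0.162 for different numbers, and 3 of 8 libraries correlated best with their own number. With the number as a replicate block, 2 ubiquitin ligase genes were higher in place of 1, and no other list count moved by over 1.5 times. Depth is unknown, and members near 3 FPKM such as Btg3 and Btg2 in Med23+/+ are the least certain.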
